A study of Mus musculus with 12 samples.

Results

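Dcx, Dclk1, Dclk2, Sox11, Sox4, Dpysl3, Gap43 and Stmn2 are transcripts widely used to mark young neurons that migrate or extend axons. These 8 genes were taken by symbol from the 55335 genes of the matrix, and all 8 were found. The cortex was profiled by single-nucleus RNA sequencing in 6 WT mice and 6 MYT1L Het mice at postnatal day 21, with 3 males and 3 females per genotype. Het mice carry 1 copy of the MYT1L S710fsX frameshift allele on a C57BL/6 background, and WT mice lack it. MYT1L is a zinc finger transcription factor of postmitotic neurons. All 12 mice had received AAV9 calling-card reagents with a tdTomato reporter into the ventricles as newborn pups, so the groups share this exposure. Nuclei came from dissected frozen cortex and were processed on the same plates with the Scale Biosciences kit. The comparison of Het with WT asks directly whether transcripts of immature neurons were still higher in the Het cortex at an age when most cortical neurons have been born.

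A young neuron relies on a dynamic microtubule array, first to migrate and then to build an axon. Dcx encodes doublecortin, a microtubule-binding protein of migrating neurons, and Dclk1 and Dclk2 encode doublecortin-like kinases. Stmn2 encodes a microtubule regulator of growing axons, Dpysl3 encodes the collapsin response mediator protein CRMP4, and Gap43 encodes a growth cone protein. Sox11 and Sox4 encode SoxC transcription factors that act in newly born neurons. As neurons mature these genes are usually lowered to different degrees, and several stay in use in particular adult neurons and in the oligodendrocyte lineage.

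On the mm10 annotation Dcx lies on chrX:143855842-143933311 on the minus strand, Sox11 on chr12:27334264-27342574 on the minus strand and Sox4 on chr13:28948919-28953713 on the minus strand. Dclk1 lies on chr3:55242364-55539068 on the plus strand, Dclk2 on chr3:86786151-86920852 on the minus strand and Stmn2 on chr3:8509360-8561606 on the plus strand. Gap43 lies on chr16:42248442-42340651 on the minus strand. Sox11 and Sox4 have a single exon, with gene and exonic lengths of 8311 and 4795 bases. A Dclk1 gene body spans 296705 bases with 15296 exonic bases, so in nuclei, where unspliced RNA is counted, levels were compared only within a gene and never between genes.

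RefSeq promoters on GRCm38.p6 were given for 5 of the 8 genes. The 250 bases before an annotated start are printed for the neuroblast transcript Dcx and for the transcription factors Sox11 and Sox4, because these are the genes whose presence in single nuclei was compared below. Capitals mark AAGTT, the core of the motif associated with the MYT1 family, or its reverse complement AACTT, searched on both strands with no overlap between matches. These letters occurred in 35.3% of 32851 promoter windows of the same length. Of the printed windows, Sox4 held them and Dcx and Sox11 did not, which says only that the letters are absent from those windows.
Dcx, chrX:143933220-143933469, minus strand: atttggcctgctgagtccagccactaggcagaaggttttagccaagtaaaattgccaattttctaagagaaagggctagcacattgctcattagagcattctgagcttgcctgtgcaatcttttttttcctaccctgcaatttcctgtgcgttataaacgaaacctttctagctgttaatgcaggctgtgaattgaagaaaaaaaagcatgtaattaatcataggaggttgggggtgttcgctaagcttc
Sox11, chr12:27342719-27342968, minus strand: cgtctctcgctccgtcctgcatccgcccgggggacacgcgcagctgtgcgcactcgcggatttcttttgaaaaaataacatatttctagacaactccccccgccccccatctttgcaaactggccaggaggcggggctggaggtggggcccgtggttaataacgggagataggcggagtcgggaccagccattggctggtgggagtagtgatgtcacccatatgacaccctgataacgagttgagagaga
Sox4, chr13:28953700-28953949, minus strand: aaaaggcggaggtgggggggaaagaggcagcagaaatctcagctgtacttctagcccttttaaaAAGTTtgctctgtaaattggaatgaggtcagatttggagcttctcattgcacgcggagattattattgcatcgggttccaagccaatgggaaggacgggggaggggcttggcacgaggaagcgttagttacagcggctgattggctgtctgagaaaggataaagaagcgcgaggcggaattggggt

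From 78743 deposited barcodes, 33120 nuclei were kept, 14345 from WT and 18775 from Het. An animal gave 1551 to 4411 nuclei and 5065015 to 14011585 UMIs, and no barcode was shared between animals. Nuclei were put into broad classes when at least 2 UMIs came from a class's marker genes and at least 0.6667 of all marker UMIs pointed to that class. For oligodendrocytes, newly formed oligodendrocytes and their precursors this share was taken over the lineage together, and the class with the most marker UMIs was used. Non-neuronal classes also needed at least 2 distinct markers, and 9110 nuclei had no class. No member of the 8 took part in the classes. The classes held 15473 excitatory, 5540 inhibitory, 1717 oligodendrocyte, 396 oligodendrocyte precursor (OPC), 285 microglial, 258 newly formed oligodendrocyte, 183 astrocyte and 144 fibroblast nuclei. Levels are in CPM, the UMIs of a gene summed over an animal's nuclei of a class and scaled so that every sum has the same total. Of 18 markers not used in the gates, 14 were highest in their own class when all animals were pooled. Tbr1 stood at 22.8 CPM in excitatory and 1.04 CPM in inhibitory nuclei, and Lhx6 at 0.41 and 36.6 CPM. Of the other 4, Nxph1 was higher in OPC (3683 CPM) than in inhibitory nuclei (2411 CPM), and Neurod1 was higher in astrocyte and microglial (6.39 and 6.32 CPM) than in excitatory nuclei (3.92 CPM). The OPC markers Sox10 and Neu4 were higher in newly formed oligodendrocytes (178 and 213 CPM) than in OPC (150 and 93.2 CPM). Clusters added 13 named subclasses, among them 821 dentate gyrus (DG)-like and 1465 striatal projection neuron-like nuclei. These 2 names refer to cell types of other regions, and where the nuclei lay in the tissue was not tested. Microglial nuclei also carried neuronal RNA: 28 mature neuron genes summed to 6714 CPM there, beside 10375 CPM in excitatory and 1381 CPM in oligodendrocyte nuclei.

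The targeted gene, Myt1l, was measured first. In excitatory nuclei it ranged from 904 to 1095 CPM in WT animals (median 970.5) and from 1034 to 1210 CPM in Het animals (median 1105). All 6 Het animals lay above the WT median, with a log2 fold change (log2FC, Het against WT) of 0.15 (SE 0.06, edgeR adjusted p = 0.457), and the ranges overlapped. In L6 CT-like nuclei Myt1l ranged from 1109 to 1291 CPM in WT and from 1322 to 1571 CPM in Het animals, without overlap (log2FC 0.23, SE 0.06, adjusted p = 0.089). In all nuclei together 5 of 6 Het animals lay above every WT animal (log2FC 0.14, adjusted p = 0.70). The share of all genes whose genotypes lie as far apart was not computed, here or in the genotype comparisons below. Myt1l was therefore not lower in the animals labelled Het. The counts do not separate the alleles, so the genotype labels could not be checked from this level.

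Across the broad classes the 8 genes did not share a pattern. Each level below is the mean ± SD over animals with at least 10 nuclei of the class. Dcx averaged 199 ± 67.9 CPM in inhibitory (n = 12), 97.8 ± 7.53 in excitatory (n = 12), 102 ± 30.5 in OPC (n = 10) and 13.2 ± 7.52 CPM in oligodendrocyte nuclei (n = 12). Its ranges overlapped between every pair of neighbours in the order inhibitory, microglia, OPC, excitatory, astrocyte, newly formed oligodendrocyte, oligodendrocyte and fibroblast. Dclk1 was highest in astrocytes, at 1935 ± 609 CPM (n = 9), and Dpysl3 in OPC, at 232 ± 68.6 CPM (n = 10). Sox4 was highest in newly formed oligodendrocytes, at 63.3 ± 18.0 CPM (n = 11) on 1 to 5 UMIs per animal, beside 4.46 ± 1.21 CPM in excitatory nuclei (n = 12). Gap43 and Stmn2 were highest in excitatory nuclei, at 73.9 ± 14.0 and 83.2 ± 8.97 CPM (n = 12). These orders are by mean. For Dclk1, Dpysl3, Sox4, Gap43 and Stmn2 the range of the highest class also overlapped that of the next. No broad class held the highest level of all 8 genes.

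**Figure D1:**
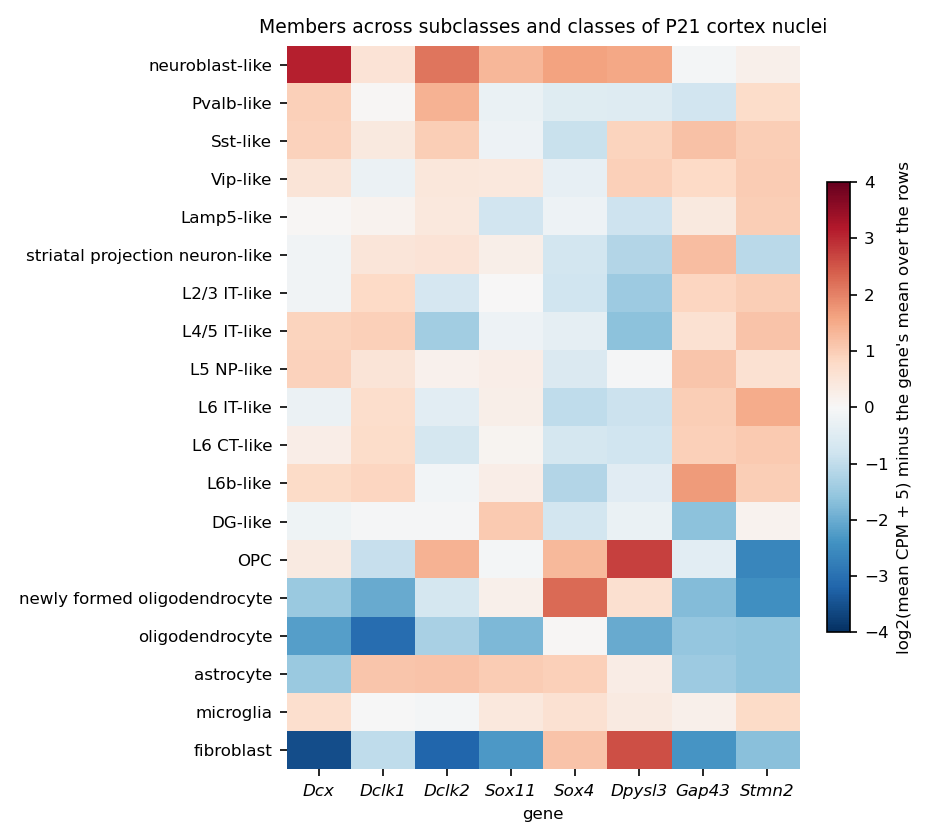
Level of each of the 8 genes (columns) in each class and subclass (rows). Colours show log2(mean CPM + 5), with CPM averaged over animals, minus the gene's mean over the rows. Dcx stands out in the neuroblast-like row at 711 CPM. Dpysl3 is highest in OPC at 232 CPM, beside 210 CPM in fibroblasts (n = 7), and Gap43 is low in the DG-like row at 7.48 CPM.

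Excitatory and inhibitory nuclei of the same animals differed in 7 of the 8 genes. The test was edgeR's quasi-likelihood test with animal as a block, a call needed an adjusted p under 0.05 and an absolute log2FC over 0.2, and 52.7% of all 10919 genes tested were called. The doublecortin family split. Dcx was lower in excitatory nuclei in 12 of 12 animals, with a log2FC of -0.94 (SE 0.12, adjusted p = 2.3e-05), and Dclk2 was lower in 12 of 12 animals by a wider margin, at -1.51 (SE 0.06, adjusted p = 1.5e-18). Dclk1 was higher in excitatory nuclei in 12 of 12 animals, at 0.50 (SE 0.04, adjusted p = 2.2e-12). For Dcx and Dclk2 the ranges of the classes did not overlap, whereas for Dclk1 they did. The share of all genes without overlap was not computed, here or in the class comparisons below.

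Of the axon genes, Stmn2 was higher in excitatory nuclei in 12 of 12 animals (log2FC 0.54, SE 0.06, adjusted p = 4.0e-09) and Gap43 in 10 of 12 (0.36, SE 0.07, adjusted p = 5.2e-05). Dpysl3 went the other way, lower in excitatory nuclei in 12 of 12 animals at -1.08 (SE 0.08, adjusted p = 4.4e-12). The SoxC genes were less stable. Sox4 was lower in excitatory nuclei in 12 of 12 animals at -0.70 (SE 0.14, adjusted p = 6.8e-05), but without the neuroblast-like nuclei described next it stood at -0.24 (adjusted p = 0.24). Sox11 had a log2FC of 0.16 (adjusted p = 0.19) with those nuclei and was called at 0.29 (adjusted p = 0.012) without them. Dcx kept its direction without them at a smaller size, -0.44 (SE 0.04, adjusted p = 3.0e-11).

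Neuroblast-like nuclei were 1176 nuclei in 4 clusters with at least 3 raised markers among Dlx2, Dlx5, Sp8, Igfbpl1, Cdca7 and Cd24a, genes of young interneurons of ventral origin. The name is approximate, and whether these nuclei were young was not tested. The largest cluster, of 768 nuclei, was led by Cpa6, Meis2, Adamts19, Lgr5 and Frmd7 and scored higher on the Lamp5 list, and another, of 73 nuclei, scored higher on the Vip list. The 28 mature neuron genes summed to 7158 ± 989 CPM in these nuclei (n = 11) and 9248 ± 378 CPM in the other inhibitory nuclei (n = 12), so they were not free of mature transcripts. A wider list of 28 immature neuron genes summed to 2643 ± 355 CPM there, against 2303 ± 57.8 CPM in the other inhibitory nuclei. It summed to 2667 ± 77.1 CPM in Pvalb-like and 2911 ± 157 CPM in Sst-like nuclei, so its sum did not set the neuroblast-like nuclei apart. The list shares Igfbpl1 and Cd24a with the markers above, so it is not independent of the cluster name. Its sum was also 5441 ± 371 CPM in newly formed oligodendrocytes (n = 11), so it is not particular to neurons. The inhibitory gate held 841 of the 1176.

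In these clusters Dcx was at its highest. It ranged from 562 to 822 CPM over 11 animals with enough nuclei, against 132 ± 14.5 CPM in the other inhibitory nuclei of those animals, and was higher in 11 of 11. The log2FC was 2.34 (SE 0.09) and the ranges did not overlap. Because the clusters were built from expression, the comparisons of this paragraph and the next are descriptions and carry no p. Dclk2 averaged 489 ± 84.0 against 205 ± 15.8 CPM and the axon gene Dpysl3 98.7 ± 52.0 against 37.1 ± 5.79 CPM, each higher in 11 of 11 animals. Sox11 averaged 56.5 ± 34.0 against 20.2 ± 4.03 CPM and Sox4 38.3 ± 31.6 against 4.78 ± 1.33 CPM, again in 11 of 11. For Dcx, Dclk2, Sox4 and Dpysl3 the ranges did not overlap, and the share of all genes without overlap was not computed. Sox4 rested on 1 to 20 UMIs per animal in the neuroblast-like nuclei. By the p and fold rule above, 7 of the 7 members that passed the filter on low counts (Sox4 did not) were called, 5 higher and 2 lower, beside 45.4% of all 8381 genes tested, 20.4% higher and 25.1% lower in the neuroblast-like nuclei. Clusters and filter both drew on expression, so nothing is read from these counts.

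Of the axon genes, Gap43 and Stmn2 went the other way from Dpysl3. Gap43 was lower in the neuroblast-like nuclei in 10 of 11 animals, at 32.0 ± 31.1 against 71.5 ± 9.14 CPM, and Stmn2 was lower in 8 of 11, at 41.0 ± 30.7 against 59.8 ± 9.46 CPM. Several animals gave few such nuclei, down to 15 among those used. Dclk1 was higher in 11 of 11 animals at a log2FC of 0.27 (SE 0.09), but at -0.13 (SE 0.11) without the largest cluster, whereas Dcx then stood at 2.25, Sox11 at 1.64 and Dpysl3 at 1.69. Gap43 then stood at -0.87 and Stmn2 at -0.07.

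The same Dcx UMIs were also counted per nucleus, pooled over animals. At least 3 Dcx UMIs were counted in 344 of 1176 neuroblast-like nuclei, or 29.3%. Of the 1176, WT male 2 gave 261, Het female 2 gave 241 and Het male 3 gave 224, and the spread over animals was not computed. The next named subclasses were L5 NP-like nuclei at 3.61% and Sst-like nuclei at 3.48%. Nuclei of the oligodendrocyte gate that lay in non-neuronal clusters were at 0.061%, 1 of 1640 nuclei. The median depth of neuroblast-like nuclei, 2490 UMIs, was below the 3508 UMIs of L5 NP-like and the 3562.5 UMIs of Sst-like nuclei.

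**Figure D2:**
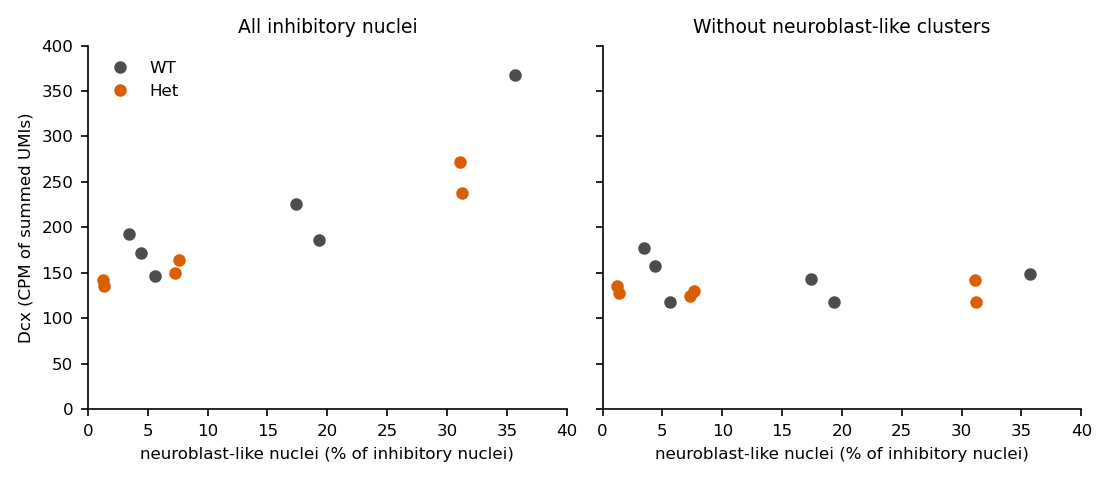
Dcx level in inhibitory nuclei (y axis, CPM) against the percentage of inhibitory nuclei that were neuroblast-like (x axis), a point for each of the 12 animals coloured by genotype, with these nuclei included (left) and left out of the level (right). WT male 2 holds the highest share, 35.7%, and the highest Dcx level, 368 CPM, and without these nuclei the 12 animals lie between 118 and 178 CPM.

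The share of neuroblast-like nuclei differed widely between animals of each genotype. It ran from 0.967% to 10.5% of nuclei in WT and from 0.348% to 8.47% in Het animals. The means were 3.67 ± 3.64% and 3.55 ± 3.84% (exact two-sided permutation test over 924 relabellings, p = 0.97). As a share of inhibitory nuclei it reached 35.7% in WT male 2, 31.2% in Het female 2 and 31.1% in Het male 3, and fell to 1.22% in Het male 1. These 3 animals also had the 3 highest Dcx levels in inhibitory nuclei, 368, 238 and 272 CPM. The source of this spread between animals was not tested.

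Elsewhere the subclasses showed graded differences. Dcx averaged 154 ± 23.6 CPM in Pvalb-like, 152 ± 40.6 in Sst-like, 151 ± 17.7 in L5 NP-like and 150 ± 25.9 CPM in L4/5 IT-like nuclei, and 65.1 ± 11.1 CPM in L6 IT-like nuclei (n = 12 each), with every neighbour in the order below neuroblast-like overlapping the next. L2/3 IT-like nuclei were lower than L6 CT-like nuclei in 11 of 12 animals, at 70.4 ± 9.20 against 96.0 ± 14.1 CPM, and 46.7% of 7317 genes were called between these subclasses. Gap43 was highest in L6b-like nuclei, at 123 ± 44.9 CPM, and stood at 17.8 ± 7.84 CPM in Pvalb-like nuclei.

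DG-like nuclei, which resemble granule cells of a region where neurons are still added after birth, did not carry the set as a whole. Their excitatory gate markers summed to 203 ± 26.7 CPM, against 1084 ± 56.7 CPM in other excitatory nuclei (n = 12 each). They were grouped with excitatory nuclei by their cluster name and not by the gate. Gap43 averaged 7.48 ± 6.17 CPM there against 73.7 ± 13.2 CPM in other excitatory nuclei, lower in 12 of 12 animals without overlap. Dclk1 was also lower in 12 of 12 without overlap, at 848 ± 111 against 1438 ± 101 CPM, and Stmn2 and Dcx were lower in 12 of 12 with overlap. By the p and fold rule, again as a description, 6 of the 7 members that passed the filter on low counts were called, 4 lower (Gap43, Stmn2, Dclk1 and Dcx) and 2 higher (Sox11 and Dclk2), beside 41.5% of 9786 genes called, 22.6% lower and 19.0% higher. Sox11 was higher in 11 of 12 animals, at 45.3 ± 23.0 against 22.1 ± 2.82 CPM, and no other of the 8 was higher in more than 8 of 12.

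In the oligodendrocyte lineage, OPC were compared with oligodendrocytes in 10 animals. The 4 genes that passed the filter on low counts, Dpysl3, Dcx, Dclk2 and Dclk1, were all called higher in OPC, beside 65.2% of 3558 genes called, 30.3% higher and 34.9% lower. Dpysl3 had the largest estimate, at a log2FC of 5.67 (SE 0.26, adjusted p = 5.6e-22). Dcx followed at 3.26 (SE 0.29, adjusted p = 3.9e-13), Dclk2 at 2.92 (SE 0.18, adjusted p = 6.4e-18) and Dclk1 at 2.58 (SE 0.19, adjusted p = 5.0e-11). In oligodendrocytes of all 12 animals Dpysl3 rested on 19 UMIs (0 to 5 per animal) and Dcx on 54 (1 to 11). The sizes for Dpysl3 and Dcx, and the order of the genes, are therefore uncertain. Each of the 4 genes was higher in 10 of 10 animals and its ranges did not overlap, but the share of all genes without overlap was not computed. Passing the filter depended on a class where the gene is high, so the 4 are not read as support for the set. The other 4 overlapped between the classes.

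As a description, the genes whose class levels were most like each member were listed over 21 classes and subclasses of the same nuclei and 10991 genes, by Pearson correlation of log2(CPM + 5). For Dcx these were Epha5 (r = 0.947), Frmd3 (0.935) and Pcdha4 (0.915). For Dclk1 they were Hivep2 (0.914), Ccdc57 (0.895) and Drp2 (0.876), and for Dclk2 Tmem35a (0.845), Tbc1d12 (0.839) and Prune2 (0.837). For Sox11 they were Gpm6a (0.859), Tceal3 (0.851) and Nrcam (0.843), and for Sox4 Fnbp4 (0.913), Xrn2 (0.8998) and Top2b (0.897). For Dpysl3 they were Ackr3 (0.855), AW554918 (0.811) and Vav2 (0.796), for Gap43 Dram1 (0.902), Sgsm3 (0.899) and Ptprn2 (0.898), and for Stmn2 C230057M02Rik (0.963), Syt13 (0.949) and Gm33228 (0.949). Among the 8 genes themselves the closest pair was Gap43 and Stmn2 (r = 0.771), and Sox4 and Stmn2 were the most opposed (r = -0.683). All points share the same 12 animals, and low classes share a few UMIs.

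Het and WT were compared on sums per animal in each class, and no member was called in any. In excitatory nuclei 0 of 8 genes were called, beside 0.167% of 13139 genes (22 genes), and 1 of 8 had an unadjusted p under 0.05 beside 7.91% of all genes. In inhibitory nuclei 0 of 8 were called beside 0.0% of 10213 genes, and 0 of 8 had an unadjusted p under 0.05 beside 5.15%. In all nuclei together 0 of 8 were called beside 0.0% of 16667 genes, and 0 of 8 had an unadjusted p under 0.05 beside 5.98%. DESeq2 called 0 of 8 in each of the 3 and gave no adjusted p for Dpysl3, Sox11 and Sox4 in excitatory or inhibitory nuclei. Without the neuroblast-like nuclei described above, Dcx in all nuclei together stood at a log2FC of -0.16 (interval -0.27 to -0.05, adjusted p = 0.54), with all 6 Het animals below the WT median and 3 of them below every WT animal. In the sum over all nuclei, a change in the mix of nuclei and a change within nuclei cannot be told apart.

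**Figure D3:**
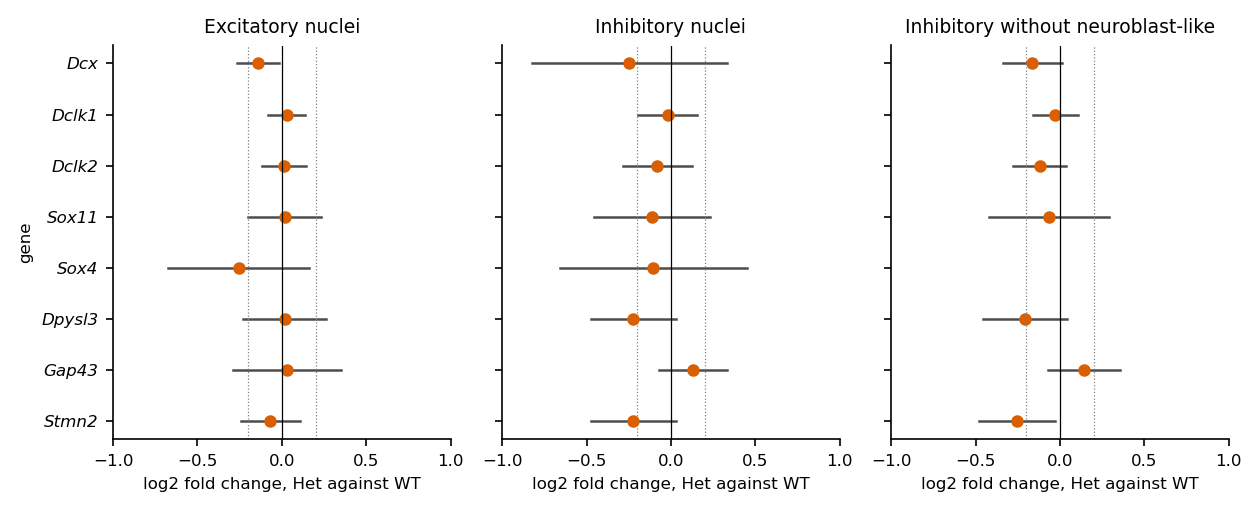
Log2FC (x axis, Het against WT) of each of the 8 genes in excitatory nuclei, in inhibitory nuclei and in inhibitory nuclei without neuroblast-like clusters, with bars for the 95% confidence interval from edgeR and dotted lines at a change of 0.2. Only the intervals of Dcx in excitatory nuclei, -0.26 to -0.02, and of Stmn2 in inhibitory nuclei without the neuroblast-like clusters, -0.48 to -0.03, exclude 0, and Sox4 has no point in the last panel because it did not pass the filter on low counts there.

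In excitatory nuclei Dcx had the smallest p of the 8 genes. It ranged from 87.0 to 112 CPM in WT (median 103) and from 90.8 to 97.7 CPM in Het (median 92.9). All 6 Het animals lay below the WT median, but none lay below the lowest WT animal, so the groups overlapped. The log2FC was -0.14 (SE 0.06, 95% confidence interval -0.26 to -0.02), with an unadjusted edgeR p of 0.027 and an adjusted p of 0.53. Leaving out an animal kept it between -0.17 and -0.12. The excitatory gate pools subclasses that differ in Dcx, as given above. A change in their mix and a change within nuclei therefore cannot be told apart in this sum either.

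The doublecortin-like kinases were close to equal. Dclk1 ranged from 1222 to 1592 CPM in WT (median 1417) and from 1347 to 1589 CPM in Het (median 1466), a log2FC of 0.03 (interval -0.08 to 0.14). Dclk2 ranged from 76.9 to 82.5 CPM in WT (median 80.5) and from 72.7 to 91.0 CPM in Het (median 80.1), a log2FC of 0.01 (interval -0.12 to 0.14). Both intervals excluded a change of 0.2 in either direction.

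The axon genes had wider spreads. Gap43 ranged from 50.4 to 104 CPM in WT (median 70.1) and from 67.9 to 89.4 CPM in Het (median 72.6), a log2FC of 0.03 (interval -0.29 to 0.35). Stmn2 ranged from 65.6 to 93.9 CPM in WT (median 89.6) and from 72.0 to 90.0 CPM in Het (median 82.7), a log2FC of -0.07 (interval -0.24 to 0.11). Dpysl3 ranged from 16.5 to 24.1 CPM in WT (median 17.5) and from 13.5 to 22.4 CPM in Het (median 19.8), a log2FC of 0.02 (interval -0.23 to 0.26). For these 3 genes the Het values lay among the WT values, apart from 1 Het animal for Dpysl3 that was below all WT animals.

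Of the SoxC genes, Sox11 ranged from 17.3 to 24.1 CPM in WT (median 23.6) and from 19.6 to 26.2 CPM in Het (median 23.1), a log2FC of 0.02 (interval -0.20 to 0.23). Sox4 ranged from 3.63 to 7.88 CPM in WT (median 4.30) and from 2.81 to 4.86 CPM in Het (median 4.18), a log2FC of -0.26 (interval -0.67 to 0.16). Sox4 rested on 8 to 36 UMIs per animal, and changes from -0.67 to 0.16 were not excluded by its interval. WT male 2, at 7.88 CPM, set much of this value, which was -0.06 without that animal.

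**Figure D4:**
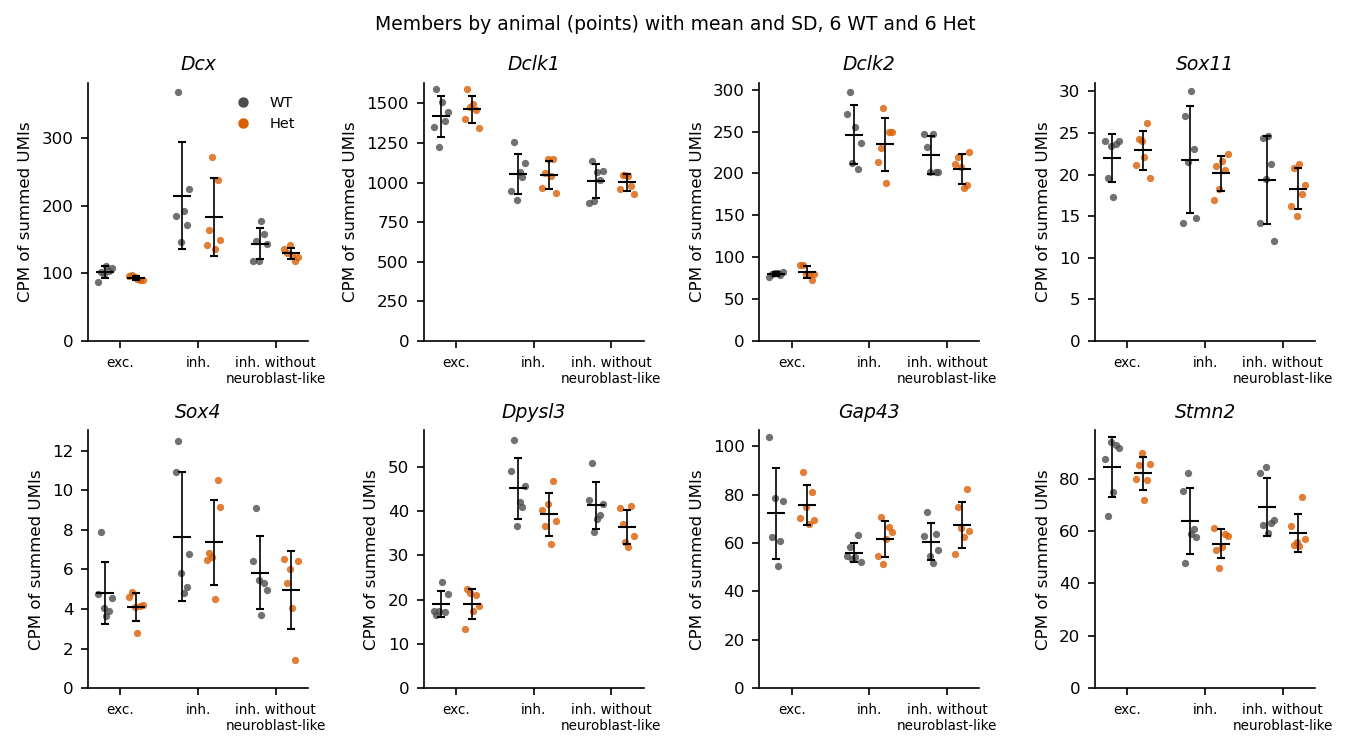
Level of each of the 8 genes (y axis, CPM) in excitatory (exc.) and inhibitory (inh.) nuclei and in inhibitory nuclei without neuroblast-like clusters, a point for each animal with the mean and SD of each genotype (6 WT, 6 Het). WT and Het points overlap in every pair, and Dcx in WT male 2 stands apart in inhibitory nuclei at 368 CPM.

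In inhibitory nuclei Dcx ranged from 146 to 368 CPM in WT (median 189) and from 136 to 272 CPM in Het (median 157), a log2FC of -0.25 (SE 0.26, interval -0.82 to 0.33). Without WT male 2, the animal with the highest share of neuroblast-like nuclei, it was -0.02. Without the neuroblast-like nuclei of every animal Dcx ranged from 118 to 178 CPM in WT (median 146) and from 118 to 142 CPM in Het (median 129), with all 6 Het animals below the WT median. The log2FC was then -0.16 (SE 0.09, interval -0.34 to 0.01, edgeR adjusted p = 0.72), and in Pvalb-like, Sst-like, Vip-like and Lamp5-like nuclei only it was -0.08 (SE 0.10), and the WT median was exceeded by 4 of 6 Het animals.

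The other 7 genes had log2FC from -0.22 to 0.13 in inhibitory nuclei. Of all 8 genes, 7 lay below 0 and 1 above, with a median of -0.11, beside -0.003 over all genes. In excitatory nuclei 3 lay below 0 and 5 above, with a median of 0.01, beside -0.01. Stmn2 ranged from 47.8 to 82.1 CPM in WT (median 59.8) and from 46.0 to 61.3 CPM in Het (median 55.9), a log2FC of -0.22 (interval -0.48 to 0.03). Dpysl3 ranged from 36.7 to 56.1 CPM in WT (median 43.9) and from 32.6 to 46.8 CPM in Het (median 39.0), also -0.22 (interval -0.47 to 0.03). Gap43 ranged from 52.4 to 63.2 CPM in WT (median 54.4) and from 51.5 to 70.8 CPM in Het (median 63.2), a log2FC of 0.13 (interval -0.07 to 0.33). All 3 overlapped between genotypes. Dclk1 was at -0.02 (interval -0.19 to 0.16), Dclk2 at -0.08 (interval -0.28 to 0.12), Sox11 at -0.11 (interval -0.46 to 0.23) and Sox4 at -0.10 (interval -0.66 to 0.45), which was 0.15 without WT male 2. Without the neuroblast-like nuclei Stmn2 stood at -0.26 (edgeR adjusted p = 0.61), with 4 of 6 Het animals below every WT animal.

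A class built from clusters instead of gates, the inhibitory clusters other than neuroblast-like, was also fitted. Here 0 of 8 genes were called, beside 0.818% of 10760 genes (88 genes), and 3 of 8 had an unadjusted p under 0.05, beside 8.87% of all genes. Dpysl3 was at a log2FC of -0.33 (SE 0.10, adjusted p = 0.15), with 5 of 6 Het animals below every WT animal. Stmn2 was at -0.24 (SE 0.10, adjusted p = 0.41) and Dcx at -0.16 (SE 0.08, adjusted p = 0.53), so none of the 3 passed the threshold. Gap43 was at 0.16 (SE 0.09, adjusted p = 0.67). DESeq2 called 0 of 8 in this class and gave Dpysl3, Sox11 and Sox4 no adjusted p.

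The make-up of this class differed between genotypes. Striatal projection neuron-like nuclei were 454 of 3113 nuclei in WT and 1011 of 4373 in Het, or 14.9 ± 3.41% and 22.9 ± 3.16% per animal (SD, n = 6 each, exact two-sided permutation p = 0.0065), and the ranges of 11.9% to 20.4% and 18.7% to 26.5% overlapped. These nuclei held Stmn2 at 14.0 ± 6.88, Dpysl3 at 10.9 ± 5.68, Dcx at 70.4 ± 18.4 and Gap43 at 87.7 ± 18.5 CPM (n = 12). The WT means of the whole class were 64.2, 40.9, 139 and 66.9 CPM, so the striatal projection neuron-like nuclei stood lower in the first 3 genes and higher in Gap43. Without them 1 gene in place of 88 was called in the class, and 0 of the 8. Dpysl3 then stood at -0.23 (SE 0.11, adjusted p = 0.92), Stmn2 at -0.15 (SE 0.10), Dcx at -0.09 (SE 0.08) and Gap43 at 0.11 (SE 0.11). In the inhibitory gate, where they were 8.09 ± 4.08% of nuclei in WT and 13.0 ± 3.70% in Het (exact permutation p = 0.061), Dpysl3 stood at -0.13 (SE 0.12) and Stmn2 at -0.14 (SE 0.12) without them. In Pvalb-like, Sst-like, Vip-like and Lamp5-like nuclei of that gate only, Dpysl3 was at -0.02 (SE 0.14), and the WT median was exceeded by 5 of 6 Het animals. Stmn2 there was at -0.21 (SE 0.11, edgeR adjusted p = 0.87), with 5 of 6 Het animals below every WT animal, and was not called. Because the share of all genes with such a count was not computed, nothing is read from it, nor from the like counts for Dpysl3, Stmn2 and Dcx above. The source of the difference in make-up, and its part in the values of the 8 genes, were not tested.

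The same test was run in 18 other classes and subclasses with enough nuclei in at least 3 animals per genotype. Of 75 tests of a member in a class, 0 were called, beside 0.116% of 70747 gene and class tests, and 0 had an unadjusted p under 0.05, beside 6.53%. Their log2FC ran from -0.48 to 0.47, with a median of -0.04 and a smallest unadjusted p of 0.086. Beside 0.785% in L6 CT-like nuclei, the share of genes called was 0.151% in L4/5 IT-like, 0.0955% in DG-like, 0.0879% in L6 IT-like, 0.0595% in Sst-like and 0.0268% in Vip-like nuclei and 0.0% in the others. DESeq2 also called 0, with no adjusted p for part of the pairs in L2/3 IT-like, L4/5 IT-like and L6 CT-like nuclei. Dcx was below 0 in 9 of the 13 subclasses where it was tested and above 0 in 4. It ran from -0.33 (SE 0.20) in striatal projection neuron-like nuclei to 0.27 (SE 0.23) in Lamp5-like nuclei. It stood at -0.20 (SE 0.13) in L4/5 IT-like, -0.16 (SE 0.11) in L6 CT-like, 0.04 (SE 0.13) in L2/3 IT-like and 0.09 (SE 0.16) in L6 IT-like nuclei. In neuroblast-like nuclei Dcx was at -0.21 (SE 0.14), in a fit that Het male 1, with 7 such nuclei, did not enter.

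The share of nuclei with at least 1 Dcx UMI was compared after each nucleus was thinned to 1500 UMIs, which left out 0 nuclei. In excitatory nuclei it ran from 12.02% to 14.7% in WT (13.7 ± 0.982%, SD, n = 6) and from 10.7% to 13.8% in Het (12.1 ± 0.998%, n = 6), a difference of -1.64 percentage points. The exact permutation test gave p = 0.022, and 0.13 after Benjamini-Hochberg adjustment over 6 comparisons, where the smallest p that 924 relabellings allow is 0.00216. Without thinning the shares were 26.3% and 25.4%, a difference of -0.95 points. With no upper limits on UMIs and genes per nucleus the thinned difference was -0.60 points.

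Dcx in inhibitory nuclei stood at 24.6 ± 5.89% in WT and 22.2 ± 7.18% in Het, and in neuroblast-like nuclei at 69.0 ± 8.94% and 63.3 ± 6.25%. As a background, Dcx was found in 15.6 ± 3.62% and 13.7 ± 9.03% of microglial nuclei, which also held neuronal RNA as given above, and in 2.16 ± 1.90% and 0.832 ± 0.541% of oligodendrocyte nuclei. The median depths were 3427 UMIs in excitatory, 3382.5 in inhibitory, 3147 in microglial and 2509 in oligodendrocyte nuclei. The Dcx share of excitatory nuclei was therefore no higher than that of microglial nuclei and above that of oligodendrocyte nuclei. The part of free RNA in these shares was not tested.

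Sox11 was found in 3.04 ± 0.481% of excitatory nuclei in WT and 3.201 ± 0.572% in Het, and Sox4 in 0.651 ± 0.196% and 0.628 ± 0.192%. In microglial nuclei of both genotypes together the shares were 3.51% for Sox11 and 3.86% for Sox4, and in oligodendrocyte nuclei they were 0.233% and 1.51%. The excitatory Sox4 shares were below both, but Sox4 is itself present in the oligodendrocyte lineage and the microglial share rests on 285 nuclei, so these shares do not separate expression from background. The excitatory Sox11 shares were above the oligodendrocyte share in both genotypes, and below the microglial share in WT but above it in Het. Sox11 in microglial nuclei was at 6.27 ± 4.23% in WT and 0.956 ± 1.48% in Het, on 138 and 147 nuclei. In inhibitory nuclei Sox11 was at 3.37 ± 0.943% and 2.93 ± 0.681%, and Sox4 at 1.64 ± 1.04% and 1.22 ± 0.4%. The 6 shares of Dcx, Sox11 and Sox4 had adjusted exact permutation p values from 0.13 to 0.83.

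**Figure D5:**
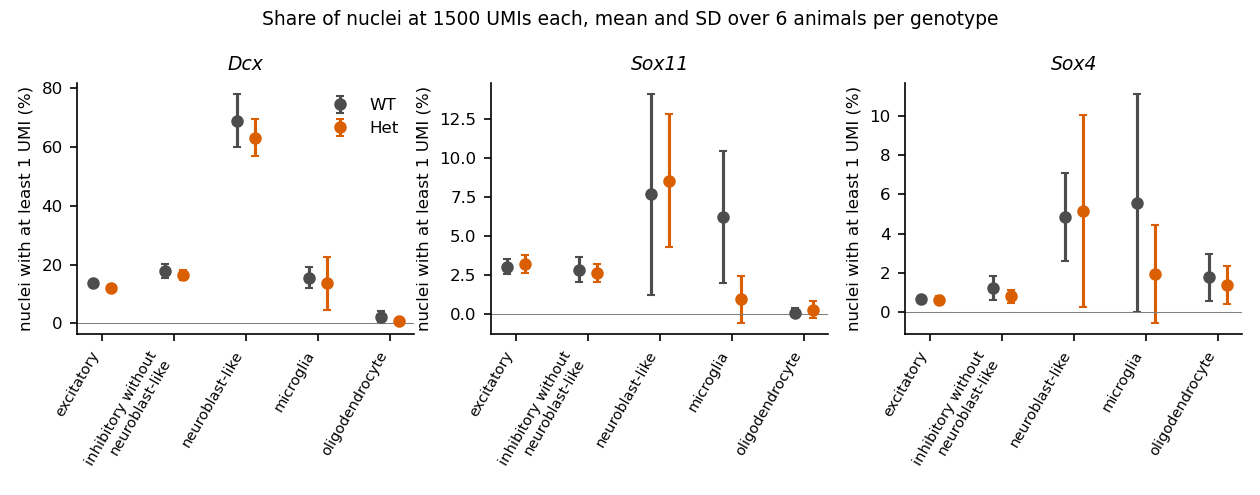
Percentage of nuclei with at least 1 UMI of Dcx, Sox11 or Sox4 at 1500 UMIs per nucleus (y axis), as the mean (point) and SD (bar) over 6 animals per genotype, by class. Dcx in neuroblast-like nuclei lies at 69.0% in WT and 63.3% in Het, and in excitatory nuclei at 13.7% and 12.1%.

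Wider lists were set beside the 8 genes. Of 28 further immature neuron genes, 22 were tested in excitatory nuclei and 21 in inhibitory nuclei, and 0 were called in either, beside 0.167% and 0.0% of all genes, with median log2FC of 0.04 and -0.02, beside -0.01 and -0.003 over all genes. Of 28 mature neuron genes, 28 and 27 were tested and 0 were called, with medians of 0.07 and 0.05. DESeq2 called 0 of these as well. In excitatory nuclei 4 of 22 immature and 6 of 28 mature genes had an unadjusted p under 0.05, beside 7.91% of all genes, and in inhibitory nuclei 0 of 21 and 4 of 27 did, beside 5.15%. Of 8 progenitor genes, 0 passed the filter in excitatory and 2 in inhibitory nuclei, and their summed level ran from 2.72 to 5.16 CPM in WT and 2.76 to 8.72 CPM in Het excitatory nuclei.

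Among the genes of these lists with the smallest p were, in excitatory nuclei, the sodium channel gene Scn1a at a log2FC of -0.22 (SE 0.06, adjusted p = 0.22), the microtubule gene Map1b at 0.18 (SE 0.05, adjusted p = 0.22) and the synaptic vesicle gene Cplx2 at 0.24 (SE 0.07, adjusted p = 0.24). In inhibitory nuclei they included Nrgn, a postsynaptic calmodulin-binding protein gene, at 0.69 (SE 0.21, adjusted p = 0.51) and the kinase gene Camk2a at 0.21 (SE 0.08, adjusted p = 0.84). None of these was called.

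In the inhibitory clusters other than neuroblast-like, 1 of 21 immature genes was called, beside 0.818% of all genes, and 0 of 27 mature genes. It was Dclk3, a doublecortin-like kinase gene outside the 8, higher in Het at a log2FC of 0.65 (SE 0.16, adjusted p = 0.037). Dclk3 ranged from 10.3 to 18.5 CPM in WT and from 16.2 to 27.8 CPM in Het animals, and the ranges overlapped. The call held in 3 of 12 fits that left out an animal (WT female 1, WT female 2 or Het male 3), with adjusted p from 0.011 to 0.16, and DESeq2 gave no adjusted p. Dclk3 was concentrated in the striatal projection neuron-like nuclei, at 68.6 ± 12.2 CPM in WT and 82.5 ± 13.6 CPM in Het, and its means lay between 0.334 and 4.18 CPM in the Pvalb-like, Sst-like, Vip-like and Lamp5-like nuclei. Without the striatal projection neuron-like nuclei it did not pass the filter on low counts. Next by p were Camk2a at 0.27 (SE 0.07, adjusted p = 0.076) and Cplx2 at 0.43 (SE 0.12, adjusted p = 0.086), which were not called.

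The sex by genotype interaction was tested in excitatory and inhibitory nuclei. Of the 8 genes, 0 were called in excitatory nuclei, beside 0.00716% of 13968 genes, and 0 in inhibitory nuclei, beside 0.0% of 11150 genes. All 16 tests had an unadjusted edgeR p above 0.05. The smallest was that of Sox4 in inhibitory nuclei, where the Het effect in females minus that in males was 0.99 on the log2 scale (SE 0.54, edgeR adjusted p = 0.99997), on 4 to 24 UMIs per animal. The next was Dcx in excitatory nuclei, at -0.20 (SE 0.12, edgeR adjusted p = 0.89).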

How the data were processed

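Nuclei of 12 P21 cortices (6 WT, 6 Het) were analysed. The deposited values are expected counts of UMIs per gene and nucleus, made by the authors with the ScaleRna pipeline on mm10 without normalization, in which a UMI shared by several genes is divided, and counting by strand is not given in the sources used here. The submitters' notes name Seurat 4.3.0 and DESeq2 1.38.3.

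Kept nuclei had a mitochondrial share of no more than 1%, between 300 and 3000 genes, between 800 and 6000 UMIs and a complexity (log gene number divided by log UMI number) of 0.9 or more. Per animal, the top 5% by Scrublet score were then dropped as doublets. Clusters (scanpy 1.11.5, Leiden) were named from marker lists by criteria set after the clusters were seen. Counts were summed per animal and class, rounded, and tested with edgeR 4.0.16 (TMM, filterByExpr, genotype only) and Benjamini-Hochberg adjustment over all genes, with DESeq2 1.42.0 as an alternative. Between classes, animal was a block. Alternatives changed the tool, scaling, filter, gate, doublet and UMI limits, covariates and animals. Those without neuroblast-like nuclei, without the largest such cluster, without striatal projection neuron-like nuclei, or on 4 interneuron subclasses only were added after the data were seen. Scripts were tested on simulated data. Replicates are separate mice.

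All 8 genes are named. From the wider lists the genes called, or otherwise the 3 with the smallest p in each neuronal fit, are named, and for each of the 8 the 3 genes closest in class profile. A gene that this rule would name is not reported here. The 8 genes and the lists were chosen with earlier results of these data known. Precision is limited by 5065015 to 14011585 UMIs per animal, and confidence intervals cover the spread between animals.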

Additional observations from a re-analysis of the deposited data

Results flagged for a closer look

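Among 66 groups of 5 or 6 animals in which the 8 genes or the share of neuroblast-like nuclei were examined, 7 held an animal whose gap to the nearest other, divided by the group's range, passed Dixon's 95% critical value. Chance flags about 1 in 20 groups.

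WT male 2 stood above the other WT animals in 4 of them. Its Dcx level in inhibitory nuclei was 368 CPM against 146 to 225 CPM in the other 5, its Dclk2 level in all nuclei was 149 CPM against 110 to 122 CPM, and its share of neuroblast-like nuclei was 10.5% against 0.967% to 4.04%. Both genes were higher in neuroblast-like than in other inhibitory nuclei. Its Sox4 level in excitatory nuclei was 7.88 CPM against 3.63 to 4.75 CPM. Without the neuroblast-like nuclei its Dcx level in inhibitory nuclei was 148 CPM, inside the range of the other WT animals.

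Sox4 in excitatory nuclei of Het female 1 was 2.81 CPM against 4.12 to 4.86 CPM in the other Het animals. In neuroblast-like nuclei, Sox4 in WT female 2 was 77.7 CPM against 19.7 to 27.8 CPM, on 26 nuclei, and Gap43 in Het female 3 was 57.5 CPM against 5.70 to 19.4 CPM, on 62 nuclei.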

How the results depend on the processing

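No alternative called any of the 8 genes between Het and WT in excitatory, inhibitory or all nuclei, or in the other classes where it was run. Signs near 0 changed. With no upper limits per nucleus, log2FC in excitatory nuclei was -0.0101 for Dclk2 and -0.0529 for Dpysl3, in inhibitory nuclei 0.0116 for Dclk1 and 0.0734 for Sox11, and in all nuclei 0.0283 for Dclk1 and -0.0309 for Sox11. With doublets kept it was -0.0181 for Dpysl3 in excitatory nuclei, and 0.0002 for Dclk1 and -0.0052 for Dclk2 in all nuclei. With clusters as classes Gap43 in excitatory nuclei was -0.0065. With no filter on low counts Dclk1 was 0.01 in inhibitory and 0.0138 in all nuclei, with the stricter gate 0.0019 in inhibitory nuclei, and with DESeq2 0.0015 in all nuclei. Dclk2 in all nuclei was -0.0035 without neuroblast-like clusters. The share of neuroblast-like nuclei, Het minus WT, was 0.045 percentage points with the stricter gate and 0.059 with no upper limits. Between classes, without neuroblast-like nuclei, Sox11 reached 0.29 and Sox4 fell to -0.24 in excitatory against inhibitory nuclei, and without the largest such cluster Dclk1 stood at -0.13 in neuroblast-like nuclei.

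Leaving out each animal moved log2FC in excitatory nuclei from -0.0021 to 0.0626 for Dclk1, -0.0088 to 0.0442 for Dclk2, -0.0248 to 0.0651 for Sox11, -0.0304 to 0.0858 for Dpysl3 and -0.0415 to 0.16 for Gap43. In inhibitory nuclei it ran from -0.0575 to 0.0305 for Dclk1 and -0.24 to 0.15 for Sox4. Signs held there for Dcx (-0.39 to -0.02), Dclk2 (-0.14 to -0.02), Sox11 (-0.21 to -0.02), Dpysl3 (-0.28 to -0.14), Gap43 (0.095 to 0.18) and Stmn2 (-0.31 to -0.12), but sizes moved. In all nuclei log2FC ran from -0.0312 to 0.0301 for Dclk1, -0.0413 to 0.0578 for Dclk2, -0.015 to 0.0732 for Sox11 and -0.0623 to 0.12 for Gap43. The median of the immature neuron list in inhibitory nuclei ran from -0.08 to 0.02, the Sox4 share of excitatory nuclei from -0.084 to 0.051 points and the neuroblast-like share from -1.10 to 1.25 points. The Dcx share of inhibitory nuclei, Het minus WT, kept its sign but ran from -4.72 to -0.145 points. The causes were not tested.

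Counts of all genes called depended on the setting: in excitatory nuclei 22, against 77 by DESeq2, 141 with no filter, 44 with no upper limits, 12 with the replicate block and 6 to 53 without an animal, and in inhibitory nuclei 0, against 14 by DESeq2, 57 with no filter, 30 with clusters as classes, 28 without neuroblast-like nuclei and 0 to 19 without an animal (19 without WT male 2, 11 without WT female 2). In the inhibitory clusters other than neuroblast-like 88 were called, against 1 without striatal projection neuron-like nuclei, which reversed none of the 7 members it tested. Same-numbered samples correlated at -0.41 to 0.13, so the numbers were not taken as a pairing, and the replicate block left Dcx in excitatory nuclei at -0.14 (adjusted p = 0.72) and changed no call of the 8 genes. DG-like nuclei were not refitted under the stricter gate, which left too few.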
